A study of Mus musculus with 20 samples.

Results

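Clone 2 is 1 of 3 clonal lines of SIMS cells, an epithelial line from mouse salivary gland, in which Zcchc8 had been targeted with Cas9. It was compared with untargeted wild-type SIMS cells by sequencing of total RNA. The members were the libraries whose titles name Zcchc8 KO clone 2 or wild type. They made up 8 of the 20 libraries in the gene table, 4 per group, and 7 of the 19 in the tables of regulatory features, which hold 3 wild-type libraries. The other groups, 4 libraries each, were Zcchc8 KO clones 1 and 3 and a Btbd7 KO line, the study's negative control, and they served to ask what sets clone 2 apart. All groups shared the cell line and a medium of DMEM with 10% fetal bovine serum. Every library of clone 2 came from 1 clone, and the labels do not say that replicates were separate cultures, so p-values measure only the spread between these libraries.

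Zcchc8 is a zinc-knuckle protein that, with the RNA-binding protein Rbm7 and the helicase Mtrex, forms the nuclear exosome targeting (NEXT) complex. The complex hands short, unprocessed nuclear RNAs to the RNA exosome for decay. Its best known substrates are the unstable transcripts made upstream of active promoters in the antisense direction (PROMPTs), together with enhancer RNAs and the trimmed ends of small nuclear and nucleolar RNAs. Salivary epithelium rests on a basement membrane of laminins and type IV collagens, and its cells read that matrix through integrins, growth factor receptors and the YAP pathway.

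Wild-type replicate 1 stood apart from the other libraries. It held 1056 genes with 1 to 10 counts, where the other wild-type libraries held 3659 to 4926 and the clone 2 libraries 4534 to 6186, and low genes were often at 0 in it. Gene results are therefore given without it as well for many of the calls and list counts that this changed. Gene counts totalled 13876944 to 17771804 per wild-type library and 7053304 to 16994115 per clone 2 library. The cells' identity was checked on markers. The epithelial keratin genes Krt14 (-0.12) and Krt8 (-0.07, log2) were not called between clone 2 and wild type, but 3 of 10 keratin genes fell and 2 rose, and the saliva genes Bpifa2, Pip, Smgc and Muc19 were at 0 in both groups. In bulk RNA, fewer cells of a kind and less RNA per cell cannot be told apart.

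Zcchc8 RNA itself was lower in clone 2. The gene (ENSMUSG00000029427.11, chr5:123698294-123721100, minus strand, GRCm38) stood at 63.5, 60.9, 65.5 and 67.7 TMM-scaled CPM (reads of a gene set against the library's total) in the wild-type libraries and at 25.3, 22.0, 24.0 and 22.8 CPM in clone 2. The groups did not overlap, and RNA from the locus remained. On the log2 scale clone 2 differed by -1.46 (SE 0.08, edgeR adjusted p = 8.83e-13). Clone 1 (56.0 to 66.4 CPM) and clone 3 (49.9 to 60.7 CPM) lay far above clone 2, whose difference from their mean was -1.29 (edgeR adjusted p = 1.76e-12). RNA level alone does not show whether protein was made in any of the clones.

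The partners of Zcchc8 moved little. Rbm7 stood at 71.8, 66.4, 60.6 and 60.4 CPM in wild type and at 53.5, 55.5, 57.1 and 51.6 CPM in clone 2, without overlap (a log2 change of -0.25, edgeR adjusted p = 0.018). That call was lost in a fit of these 2 groups alone (adjusted p = 0.0574) and without the scaling factors that compare libraries (adjusted p = 0.0696). The helicase gene Mtrex overlapped between wild type (134.5 to 156.2 CPM) and clone 2 (130.9 to 145.2 CPM). Against the mean of clones 1 and 3, Mtrex was higher in clone 2 by 0.27 (log2, edgeR adjusted p = 9.37e-05). Btbd7 was not called between clone 2 and wild type (log2 difference 0.09).

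The genes flanking Zcchc8 were measured as well, taking the 5 nearest tested genes on each side. Hip1r (0.51), Kntc1 (0.32) and Ccdc62 (0.85) were called higher and Clip1 (-0.38) lower on the log2 scale. The Ccdc62 call was lost in several alternatives, among them the fit of these 2 groups alone (adjusted p = 0.124). Rsrc2 (0.01), Vps33a (0.04), Denr (0.17) and 3 unnamed gene models were not called.

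RNA from the regions upstream of genes was widely raised. Of 17655 PROMPT regions tested, 6371 were higher in clone 2 than in wild type (36.1%) and 535 were lower (3.03%), with a median log2 difference of 0.44. Scaling within the PROMPT table, which centres a shift of the whole class, left 4549 higher and 2846 lower. By the kind of gene they lie upstream of, 4908 of 9320 PROMPTs of protein-coding genes were higher (52.7%, median 1.16), 275 of 753 of lincRNA genes (36.5%), 261 of 1525 of antisense genes (17.1%) and 36 of 355 of snoRNA genes (10.1%, median -0.01).

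The rule took the PROMPTs with the largest fitted increases, which were nearly silent in wild type. Such regions pass the filter on low counts only through the libraries where they are high, so they could enter only as rises, and their values are given as a description. The PROMPT of Rictor, a subunit of mTOR complex 2, stood at 0.171, 0 and 0 CPM in 3 wild-type libraries and at 8.48, 9.17, 5.57 and 6.05 CPM in clone 2, at least 38.8-fold higher with 3 counts per library as the detection floor. That floor covers counting error only, since reads carry no molecular identifiers. Rictor itself was not called (log2 difference 0.11). The PROMPT of Ubqln2, which encodes a shuttle factor for the proteasome, stood at 0.343, 0.587 and 0.117 CPM against 18.3, 18.6, 18.8 and 17.4 CPM (log2 fold change 5.74).

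Rfesd and Phospho1, which encodes a phosphatase of bone mineralization, followed the same pattern. The PROMPT of Rfesd lay at 0.229, 0.220 and 0 CPM in wild type and at 7.78, 8.10, 8.79 and 14.4 CPM in clone 2 (log2 fold change 5.98). The Phospho1 PROMPT lay at 0.343, 0 and 0 CPM and at 8.48, 7.24, 7.06 and 8.14 CPM (5.85). No wild-type library reached any clone 2 library for these 4 PROMPTs. The genes Rfesd (log2 difference 1.00, edgeR adjusted p = 1.82e-06) and Ubqln2 (0.44, edgeR adjusted p = 8.04e-07) were themselves higher than in wild type. The 5 kb upstream of Phospho1 overlap Zfp652 on the same strand, and those of Rfesd overlap the pseudogene Gm4165 on the same strand. Clones 1 and 3 carried the Rictor PROMPT at 8.34 to 9.44 and 4.02 to 5.50 CPM. Against their mean the PROMPTs of Rictor (0.17), Rfesd (0.04) and Ubqln2 (0.17, log2) were not called in clone 2. The Phospho1 PROMPT was higher than in these clones by 0.99 (log2, edgeR adjusted p = 0.00778).

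The sequences just upstream of Rictor and Phospho1 are shown because their PROMPT regions adjoin them, and the gap between Col4a4 and Col4a3 because both genes and both their PROMPTs, described further on, changed the other way. Bases come from RefSeq windows on GRCm38.p6, and capitals mark the GC box, GGGCGG or its reverse complement CCGCCC, on either strand. Rictor is chr15:6708131-6708380 (plus strand) with 4 boxes, 40 CpG and 81.2% G+C. Phospho1 is chr11:95824250-95824499 (plus strand) with 3 boxes, of which 2 overlap, 34 CpG and 75.6% G+C. The gap between Col4a4 and Col4a3 is chr1:82586850-82586920, printed on the minus strand, and its 71 bases hold 0 boxes and 2 CpG at 69.0% G+C.
Rictor: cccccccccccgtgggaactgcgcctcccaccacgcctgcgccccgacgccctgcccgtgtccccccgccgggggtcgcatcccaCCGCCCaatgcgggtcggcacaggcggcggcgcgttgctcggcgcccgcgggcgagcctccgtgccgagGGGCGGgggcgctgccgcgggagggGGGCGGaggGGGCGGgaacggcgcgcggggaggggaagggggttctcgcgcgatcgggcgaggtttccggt
Phospho1: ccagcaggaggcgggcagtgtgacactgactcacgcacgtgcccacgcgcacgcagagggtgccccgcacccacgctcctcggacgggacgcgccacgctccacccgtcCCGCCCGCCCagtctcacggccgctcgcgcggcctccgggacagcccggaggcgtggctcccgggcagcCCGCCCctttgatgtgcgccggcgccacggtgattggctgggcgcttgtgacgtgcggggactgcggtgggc
Col4a4 to Col4a3: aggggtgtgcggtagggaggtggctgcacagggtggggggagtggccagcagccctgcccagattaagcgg
A GC box was found in 10756 of 32851 windows of 250 bases (32.7%) and in 6809 of 32851 of the last 71 bases before a start (20.7%), so its presence or absence is a description of these windows.

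Set against the gene each PROMPT belongs to, the class shifted by about the same amount in every clone 2 library. Over 11392 genes the median log2 ratio of PROMPT to gene was -3.40 to -3.35 in wild type (-3.37 ± 0.03, SD, n = 3) and -2.38 to -2.36 in clone 2 (-2.37 ± 0.01, SD, n = 4). The difference was 1.00, with an exact permutation p = 0.0571, the smallest that 3 against 4 libraries allow. It was 0.53 over the 3148 genes whose PROMPT and gene had a mean of at least 50 counts. The Btbd7 KO libraries stayed at -3.36 ± 0.05 (SD, n = 4). Clone 2 lay below clone 1 (-2.18 ± 0.03, SD, n = 4) by 0.19 and below clone 3 (-2.31 ± 0.04, SD, n = 4) by 0.06, each with an exact permutation p = 0.0286. The gap to clone 3 shrank to -0.03 over the 3148 genes (exact permutation p = 0.229).

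**Figure D1:**
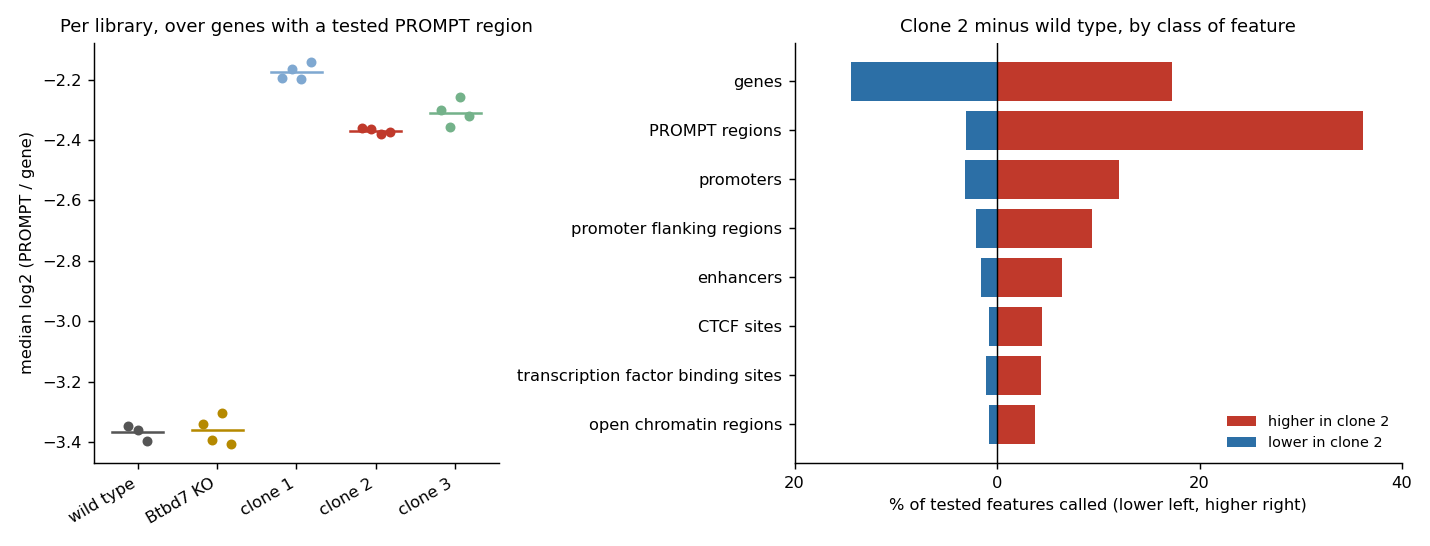
Left, median log2 ratio of PROMPT to gene, 1 point per library; right, percent of features of each class called higher or lower in clone 2 than in wild type. The clone 2 libraries sit at -2.38 to -2.36, above the 3 wild-type libraries at -3.40 to -3.35, and 36.1% of PROMPT regions were called higher.

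The calls of the genes themselves were counted beside those of their PROMPTs. Of the 5342 genes in that set whose PROMPT was higher, 1062 were higher (19.9%), 965 lower (18.1%) and 3315 not called, where over all 11392 genes 18.1% were higher and 14.1% lower. Reads of other transcripts can fall in a PROMPT region, since the strand setting and reach of these regions are not given in the sources used here. Among PROMPTs with a mean of at least 50 counts over clone 2 and wild type, that of Gm17501 fell most. It overlaps Ccn1 on the opposite strand and carried Ccn1-like values, 234.6, 223.3 and 226.3 CPM in wild type and 63.1, 61.6, 75.5 and 68.1 CPM in clone 2 (log2 fold change -1.76, edgeR adjusted p = 2.2e-24). The next, that of C230034O21Rik, overlaps Fat4, a giant cadherin gene, and fell by 1.71 (log2, edgeR adjusted p = 8.52e-08).

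The other regulatory features were called in both directions, with more of them higher than lower. Their tables hold fewer counts than the PROMPT table, so shares of calls cannot be compared between classes. Higher and lower were 1323 (9.36%) and 299 (2.12%) of 14137 promoter flanking regions, 559 (12%) and 145 (3.12%) of 4642 promoters, and 607 (6.37%) and 148 (1.55%) of 9527 enhancers. For CTCF sites they were 577 (4.40%) and 104 (0.793%) of 13122, for open chromatin regions 305 (3.79%) and 62 (0.770%) of 8051, and for transcription factor binding sites 109 (4.37%) and 28 (1.12%) of 2494. The median log2 difference of these classes was 0.12 to 0.16. Scaling within each table moved the splits to 1064 and 529 for promoter flanking regions, 447 and 257 for promoters, 521 and 257 for enhancers, 494 and 175 for CTCF sites and 274 and 114 for open chromatin regions, and higher calls were still the more numerous in all 5 classes.

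The features with the largest fitted rises were again near silence in wild type and are given as a description. Enhancer ENSMUSR00000422160 stood at 0.686, 0.294 and 0.758 CPM in wild type and at 17.5, 22.6, 18.1 and 20.9 CPM in clone 2 (log2 fold change 5.03). Its difference from clones 1 and 3 was 0.08. Promoter ENSMUSR00000252245 stood at 0.457, 0.220 and 0.466 CPM against 17.2, 17.1, 14.4 and 14.5 CPM (5.29). Promoter flanking region ENSMUSR00000690543 was at 0, 0.147 and 0 CPM against 7.51, 7.53, 7.75 and 6.61 CPM, at least 38.9-fold higher. These 3 gains were without overlap between the groups. Enhancer ENSMUSR00000483549 went the other way, from 7.49, 9.10 and 5.94 CPM to 0.556, 0.932, 1.09 and 1.11 CPM (-2.93, edgeR adjusted p = 2.47e-18), and was also below clones 1 and 3 (-3.30). The tables give these features no coordinates.

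In the gene table, 15296 genes were tested. In clone 2, 2651 were higher than in wild type (17.3%) and 2196 lower (14.4%), or 2806 and 2528 without wild-type replicate 1. Without the TMM scaling factors the split was 3164 higher and 1620 lower, with the median of all genes moving from 0.04 to 0.10 (log2). A fit of these 2 groups alone called 1395 and 1319. Most classes of annotated non-coding genes were called nearly all in 1 direction, but processed pseudogenes were not (26 of 870 higher, 30 lower). Genes nearly silent in wild type pass the filter on low counts only through other libraries, so they could enter only as rises. Bidirectional promoter lncRNAs were higher in 77 of 102 (median log2 difference 2.11) and lower in 1, antisense genes in 246 of 465 (1.56) and 1, lincRNAs in 196 of 456 (1.06) and 10, and snoRNA genes in 48 of 123 (0.83) and 4. Protein-coding genes leaned the other way, with 1635 of 11473 higher (14.3%) and 2113 lower (18.4%), and list counts are read against these shares and those of all genes.

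Among non-coding genes AA474408 rose from 3.24, 4.00, 4.11 and 1.81 CPM to 55.9, 46.4, 48.4 and 51.1 CPM, a log2 fold change of 3.94. Gm11592 (5.04), Gm23444 (4.14) and 2900060B14Rik (3.90) rose as well, while Gm13230 (-2.39) and Gm26397 (-1.84) fell. Of 12 host genes of snoRNAs, 3 rose (25.0%, against 17.3% of all genes) and 0 fell. Snhg20 went from 6.67, 14.1, 12.8 and 12.9 CPM to 45.7, 42.6, 45.4 and 43.6 CPM (1.93), and Snhg15 (1.35) and Gas5 (0.42) rose too. Host transcripts of this kind are spliced to release snoRNAs and then decayed. Clone 2 differed little from clones 1 and 3 in these classes, with 15 antisense genes higher and 9 lower, and 13 lincRNAs higher and 23 lower, against 12% higher and 9.68% lower of all genes.

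Some of the deepest losses among protein-coding genes were in the extracellular matrix. Col4a3, which encodes the alpha3 chain of type IV collagen, stood at 59.7, 52.4, 58.8 and 59.2 CPM in wild type and at 1.95, 2.01, 4.42 and 2.02 CPM in clone 2 (log2 fold change -4.38, SE 0.15, edgeR adjusted p = 4.12e-17). Its partner chain Col4a4 went from 56.4, 52.6, 54.0 and 55.8 CPM to 6.53, 5.45, 4.42 and 6.19 CPM (-3.30, SE 0.10, edgeR adjusted p = 4.2e-18). The groups lay far apart for both. Clone 1 (59.6 to 68.9 and 45.9 to 53.6 CPM) and clone 3 (93.4 to 112.8 and 77.4 to 84.2 CPM) kept both genes, and clone 2 lay below their mean by log2 differences of -4.91 and -3.52. In Btbd7 KO, Col4a3 stood at 127.1 to 140.4 CPM.

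The chains share 1 start region. Col4a3 (chr1:82586921-82722059, plus strand) and Col4a4 (chr1:82448423-82586849, minus strand) are transcribed away from each other across the 71 bases printed above. Their PROMPTs fell too, against the rise of the class. The Col4a3 PROMPT went from 4.92, 6.09 and 5.30 CPM to 0.278, 1.36, 0.632 and 0.209 CPM (log2 fold change -3.03, edgeR adjusted p = 3.31e-12) and the Col4a4 PROMPT from 4.57, 3.08 and 4.02 CPM to 1.11, 0.788, 0.632 and 0.348 CPM (-2.53, edgeR adjusted p = 3.85e-10). The 5 kb upstream of each gene overlaps the other gene on the opposite strand, so these regions may hold reads of the partner gene.

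Type IV collagens that form the general network of basement membranes moved less. Col4a1 went from 318.7, 370.0, 346.6 and 335.8 CPM to 239.1, 235.1, 261.5 and 251.8 CPM (log2 fold change -0.47, edgeR adjusted p = 2.73e-07), without overlap, and Col4a2 fell by 0.35. Col4a5, whose product joins the alpha3 and alpha4 chains, was not called (0.16). In all, 6 of 17 basement membrane genes fell (35.3%, against 14.4% of all genes) and 2 rose, with a median of 0.06; Agrn (-0.22) and Hspg2 (-0.22) fell too, and Lama3 (0.22) rose. The call of Col7a1 (0.38) was lost without wild-type replicate 1 (0.18). Col4a4 was not part of the list.

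Tnc, which encodes the matricellular protein tenascin C, was nearly lost. It stood at 21.7, 28.1, 26.1 and 30.1 CPM in wild type and at 0, 0, 0.172 and 0.209 CPM in clone 2, at least 104.6-fold lower (edgeR adjusted p = 1.1e-13). It was also low in clone 1 (0.146 to 1.45 CPM) and clone 3 (0.641 to 2.52 CPM), but not in Btbd7 KO (32.1 to 41.0 CPM). Of 19 interstitial matrix genes 8 fell (42.1%, against 14.4% of all genes) and 4 rose (21.1%, against 17.3%). A fit of these 2 groups alone called 5 lower. Among the changed genes were Col3a1 (2.07 to 3.96 CPM in wild type, 0 to 0.139 CPM in clone 2) and Fbln5, a fibulin of elastic fibres (0 to 0.743 CPM against 3.96 to 5.77 CPM). Both sit close to the detection floor in 1 group.

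Matrix-cutting enzymes and their inhibitors fell as a group, 10 of 19 (52.6%) against 14.4% of all genes, with 1 rise and a median of -0.42 (all genes 0.04). Timp3, an inhibitor of matrix metalloproteases, went from 147.0, 90.0, 84.1 and 103.3 CPM to 37.3, 34.2, 32.6 and 27.3 CPM (log2 fold change -1.70, edgeR adjusted p = 2.13e-10). Adam12, a cell-surface metalloprotease, went from 195.0, 155.5, 155.0 and 158.0 CPM to 84.7, 90.2, 87.5 and 103.2 CPM (-0.86, edgeR adjusted p = 1.66e-09). Neither gene overlapped between the groups, and both were also below the mean of clones 1 and 3 (-1.40 and -0.89). Serpinb2 (-1.96), Adamts1 (-0.83), Plaur, the urokinase receptor (-0.53) and Timp1 (-0.43) fell as well.

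Integrins split by subunit, with 4 of 11 lower (36.4%, against 14.4% of all genes) and 3 higher (27.3%, against 17.3%). Itga2, the collagen-binding alpha2 chain, rose from 41.4, 41.8, 38.2 and 40.4 CPM to 70.3, 88.1, 82.5 and 89.6 CPM (log2 fold change 1.03, edgeR adjusted p = 1.26e-08). Itgb6, part of the integrin that activates latent TGF-beta, fell from 107.2, 85.7, 70.6 and 81.1 CPM to 49.1, 49.7, 48.2 and 46.8 CPM (-0.83). Itgb4 (0.22) and Itga6 (0.19), which pair in hemidesmosomes, rose slightly, and Itgav (-0.30) and Itgb1 (-0.23) fell. The Itga7 call was lost without wild-type replicate 1.

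Targets of YAP, the co-activator that responds to cell shape and matrix tension, were the list with the highest share of falls. Of 15 tested, 11 were lower (73.3%, against 14.4% of all genes) and 0 higher, with a median of -0.42. The count was 11 lower and 1 higher without wild-type replicate 1 and 12 lower against Btbd7 KO, where 16.7% of all genes were lower. Ccn1, a secreted matricellular protein, went from 302.3, 242.8, 225.5 and 231.1 CPM to 64.5, 63.0, 76.6 and 69.6 CPM (log2 fold change -1.87, SE 0.11, edgeR adjusted p = 1.3e-12). Ccn2 went from 119.1, 173.5, 143.2 and 141.6 CPM to 69.9, 68.7, 77.2 and 66.8 CPM (-1.03, edgeR adjusted p = 1.33e-07). Amotl2, a YAP-binding scaffold, went from 92.8, 108.1, 103.9 and 96.7 CPM to 48.8, 37.8, 47.3 and 36.7 CPM (-1.24, edgeR adjusted p = 9.23e-10). In each, every clone 2 library lay below every wild-type library.

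Crim1 (-1.0), Ankrd1 (-0.78), Ajuba (-0.77), Tead1 (-0.48), Wwc1 (-0.42), F3 (-0.41), Ptpn14 (-0.38) and Lats2 (-0.32) completed the 11. Lats2, Amotl2, Ajuba, Ptpn14 and Wwc1 encode regulators of YAP whose genes YAP also drives. Against clones 1 and 3, 8 of the 15 were lower and 1, F3 (0.37), was higher, with a median of -0.31 where all genes had 0.00. Of all 15, 6 were particular to clone 2, which here means lower in it than in wild type, Btbd7 KO, clone 1 and clone 3, each by its own test.

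The integrated stress response, which raises amino acid synthesis and transport through the factor Atf4, was lower in most of its tested genes. Of 27, 17 fell (63.0%, against 14.4% of all genes), 2 rose and 8 were not called, with a median of -0.57. Asns, asparagine synthetase, went from 162.0, 185.9, 158.6 and 146.0 CPM to 83.3, 76.3, 76.6 and 66.9 CPM (log2 fold change -1.11, edgeR adjusted p = 7.11e-09). Chac1, a glutathione-degrading enzyme, went from 48.3, 85.8, 68.8 and 61.7 CPM to 33.4, 28.5, 31.1 and 31.7 CPM (-1.09, edgeR adjusted p = 1.96e-06). Cth, which makes cysteine, went from 3.56, 3.77, 2.94 and 4.08 CPM to 0.139, 0.717, 0.574 and 0.278 CPM (-2.95, edgeR adjusted p = 5.18e-06). These did not overlap between the groups.

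Atf4 itself fell by 0.72 (log2, edgeR adjusted p = 0.00012). Mthfd2 (-0.99) and Slc7a5 (-0.91), Gpt2 (-0.89), Phgdh and Psat1 of serine synthesis (-0.77 and -0.40) and the glutamine carrier Slc1a5 (-0.69) fell with it. Atf5 fell by 1.13, a call that was lost without wild-type replicate 3 (adjusted p = 0.053). Cebpb (0.43) and Ddit4 (0.23) rose, and Ddit3 (0.16) and Trib3 (-0.26), which mark a strong stress response, were not called. Compared with clones 1 and 3, 15 of the 27 were lower, where 9.68% of all genes were, and 0 higher (median -0.35). Amino acid carriers and enzymes overlap this list; 9 of 18 fell and 1 rose, among them the glutamine synthetase gene Glul (-0.83), whose call was lost without clone 2 replicate 2 (adjusted p = 0.0862).

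Cholesterol synthesis fell in the same direction, in 11 of 22 genes (50%, against 14.4% of all genes) with 1 rise and a median of -0.32. Msmo1, a sterol oxidase, went from 164.0, 161.3, 167.0 and 144.8 CPM to 106.5, 118.9, 106.6 and 111.7 CPM (log2 fold change -0.52). Hsd17b7, a sterol reductase, went from 38.6, 36.9, 36.6 and 36.9 CPM to 23.2, 24.1, 22.2 and 17.9 CPM (-0.77). Both groups of values were separate. Idi1 (-0.77), Sqle (-0.44) and Cyp51 (-0.36) fell, whereas the regulator Srebf2 (-0.08) was not called. The 1 rise, Insig1, was measured at 1.43 CPM or less in every clone 2 library. Of 14 genes of fatty acid synthesis 6 fell (42.9%, against 14.4% of all genes), including Elovl6 (-0.57), Me1 (-0.54) and Fads2 (-0.47). In that list 1 rose (7.14%, against 17.3%).

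Targets of p53 were lower in 10 of 20 genes (50%, against 14.4% of all genes) and higher in 2, with a median of -0.31. Zmat3, an RNA-binding p53 effector, went from 134.5, 108.9, 122.9 and 109.8 CPM to 65.3, 58.1, 55.3 and 61.0 CPM (log2 fold change -0.99, edgeR adjusted p = 2.76e-10). Cdkn1a, the p21 inhibitor of cell cycle kinases, went from 22.3, 26.1, 26.6 and 25.5 CPM to 13.3, 15.3, 15.3 and 16.2 CPM (-0.73, edgeR adjusted p = 1.68e-05). No clone 2 library reached a wild-type library for either. Ccng1 (-0.75) and Mdm2 (-0.32) fell, Fas (1.45) and Btg2 (0.39) rose, and the death genes Bax and Bbc3 were not called. In the comparison with clones 1 and 3, 4 of the 20 were lower and 2 higher (median -0.04), against 9.68% and 12% of all genes.

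Of 30 DNA replication genes 7 rose (23.3%, against 17.3% of all genes) and 0 fell (median 0.13); without TMM scaling factors 14 rose, and a fit of these 2 groups alone called 4. Cdc6, a loader of the replicative helicase, stood at 46.7, 50.9, 50.8 and 47.8 CPM in wild type and at 76.5, 69.7, 67.8 and 69.4 CPM in clone 2 (log2 fold change 0.53, edgeR adjusted p = 2.5e-06). Pold1 (0.62), Rfc4 (0.54), Pola2 (0.35) and Mcm7 (0.34) rose, and Pcna (0.18) was not called. Of 24 mitosis genes 9 fell (37.5%, against 14.4%) and 1 rose (median -0.13), and 14 fell without wild-type replicate 1. Ccna2, cyclin A, went from 649.4, 497.0, 533.0 and 565.8 CPM to 396.4, 402.7, 356.2 and 394.3 CPM (-0.54, edgeR adjusted p = 6.99e-07). Cdc20 (-0.40), Aurka (-0.36) and Ccnb1 (-0.22) fell, Top2a rose (0.40) and Mki67 was not called (-0.05). For mitosis genes 7 were higher and 3 lower than in clones 1 and 3, against 12% and 9.68% of all genes. Of the 17 that lie off chromosomes 3, 11, 18 and 19, 4 were higher and 3 lower. Chromosomes 2, 13 and 15, which also differed from those clones, were not left out there.

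Some genes of protein quality control fell. Of 35 proteasome subunits 15 fell (42.9%, against 14.4% of all genes) and 0 rose (median -0.18), with Psma5 (-0.55), Psmd5 (-0.51) and Psmd8 (-0.42) moving most, and 22 fell without wild-type replicate 1, while 2 rose without TMM scaling factors. Of 20 genes of the unfolded protein response 8 fell (40%) and 0 rose. The falls included the chaperone gene Hspa5 (-0.45), Herpud1 (-0.64) and the sensor Atf6 (-0.50). Without wild-type replicate 1, 10 fell and 1 rose, and without TMM scaling factors 3 rose. Of 17 heat shock genes 5 fell (29.4%, where 18.4% of protein-coding genes did), among them the mitochondrial co-chaperone Hspe1 (-0.74), and Hspa1a rose (1.11); 9 fell without wild-type replicate 1. In the comparison with clones 1 and 3, 8 proteasome genes were higher and 3 lower, against 12% and 9.68% of all genes. Of the 26 off chromosomes 3, 11, 18 and 19, 3 were higher and 3 lower, with chromosomes 2, 13 and 15 still counted. For the unfolded protein response 4 genes were higher and 1 lower than in those clones.

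Of 14 exosome genes 6 fell (42.9%, against 14.4% of all genes) and 0 rose (median -0.20). Dis3, the exosome's processive nuclease, went from 141.1, 157.5, 143.2 and 144.3 CPM to 113.4, 118.6, 122.7 and 120.6 CPM (log2 fold change -0.30, edgeR adjusted p = 0.00063), without overlap, and Exosc8 (-0.37), Exosc1 and Exosc10 fell. The calls of Dis3l (-0.38) and Exosc2 (-0.31) were lost in several alternatives. Without TMM scaling factors 2 exosome genes were lower and 1 higher, and a fit of these 2 groups alone called 2 lower. Among 13 adaptor genes Srrt, which links capped RNA to NEXT, rose from 171.9, 188.3, 178.5 and 178.0 CPM to 246.3, 234.1, 241.7 and 234.6 CPM (0.42, edgeR adjusted p = 2.11e-06), as did Zc3h4 (0.35), a termination factor for unstable RNAs. Ncbp1 (-0.23) and Rbm26 (-0.22) fell.

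Glycolysis and hypoxia genes were the main group that rose, in 13 of 25 entries (52.0%, against 17.3% of all genes) with 0 falls and a median of 0.22. A fit of these 2 groups alone called 7 of them. Without wild-type replicate 1, 10 were called, with 7 without clone 2 replicate 4 and 8 without wild-type replicate 4. Eno2, an enolase, went from 3.63, 3.94, 5.28 and 4.60 CPM to 8.48, 10.4, 9.94 and 9.95 CPM (log2 fold change 1.16, edgeR adjusted p = 1.26e-05). Bnip3, a mitophagy receptor, went from 31.2, 20.3, 22.1 and 18.5 CPM to 32.4, 42.1, 30.1 and 46.5 CPM (0.72), where wild-type replicate 1 reached into the clone 2 range. Aldoc (0.88), Pdk1 (0.41), Pfkl (0.37), Vegfa (0.34) and Ldha (0.33) rose, while Gapdh (0.15), Pkm (0.11), Slc2a1 (0.11), Hk2 (-0.11) and Eno1 (0.00) were not called. The list holds Aldoa under 2 gene identifiers, of which 1 was called.

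The antioxidant genes driven by Nrf2 split, with 11 of 25 lower and 5 higher, or 7 and 1 in a fit of these 2 groups alone. Aldh3a1, an aldehyde dehydrogenase, rose from 22.5, 31.5, 26.9 and 26.7 CPM to 81.9, 75.8, 68.5 and 62.6 CPM (log2 fold change 1.42, edgeR adjusted p = 2.47e-07). It was also above clones 1 and 3 by 2.38 (edgeR adjusted p = 3.51e-12) and above Btbd7 KO (4.21 to 6.27 CPM). Catalase, Cat, fell from 244.2, 150.6, 165.4 and 157.0 CPM to 98.1, 92.5, 92.3 and 98.3 CPM (-0.91), and the glutathione-making Gclc (-0.90) and Gclm (-0.74) and Hmox1 (-0.51) fell too.

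Growth factor genes shifted between receptors. Fgfr1 rose from 15.2, 11.4, 15.7 and 12.6 CPM to 42.3, 35.2, 49.6 and 40 CPM (log2 fold change 1.61, SE 0.15, edgeR adjusted p = 1.1e-08), without overlap, while Fgfr2, the receptor for the FGF ligands of branching salivary epithelium, fell by 1.05. Fgfbp1, a carrier that frees FGF from the matrix, went from 87.8, 90.4, 89.8 and 89.5 CPM to 37.1, 31, 35.1 and 36.5 CPM (-1.36, edgeR adjusted p = 2.69e-13). Igfbp3 (-1.15), Met (-0.70), Hbegf (-0.37) and Egfr (-0.27) fell, and Pdgfc (0.69) and Erbb2 (0.59) rose. In all 10 of 23 fell (43.5%, against 14.4% of all genes) and 4 rose (17.4%, against 17.3%). The Fgf1 call was lost without wild-type replicate 1 (-0.38). Fgfr1 was also above clones 1 and 3, by 1.58 (edgeR adjusted p = 7.04e-10).

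In the Wnt list 6 of 19 rose (31.6%, against 17.3% of all genes) and 5 fell (26.3%, against 14.4%). The falls numbered 3 without TMM scaling factors or without clone 2 replicate 2. Lgr5, a receptor for R-spondins, rose from 1.88, 1.26, 1.32 and 2.86 CPM to 7.51, 5.52, 7.93 and 6.05 CPM (log2 fold change 1.87, edgeR adjusted p = 0.000264), without overlap. The feedback inhibitors Rnf43 (0.65) and Notum (0.92) rose, the latter not at equal depth (adjusted p = 0.109), and Wnt7a (-0.77) and Fzd6 (-0.67) fell. In the TGF-beta list 6 of 24 fell (25.0%) and 4 rose (16.7%, close to the share of all genes). Tgfb1 stood at 0.712, 8.23, 6.24 and 6.24 CPM against 14.5, 17.2, 18.1 and 15 CPM (1.59, or 1.22 without wild-type replicate 1), and Smad7, an inhibitor of the pathway, fell by 1.29. Of 15 Notch genes 3 rose, including the ligand gene Jag1 (1.32) and the target Hes1 (0.58), and Notch2 fell (-0.23). Jag1 lay below clones 1 and 3 (-0.74).

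Immediate early genes rose in 8 of 27 (29.6%, against 17.3% of all genes) and fell in 3 (11.1%, against 14.4%). Egr1, a transcription factor induced by ERK, went from 3.24, 6.63, 5.28 and 10.4 CPM to 27.8, 18.9, 22.7 and 19.5 CPM (log2 fold change 1.78, edgeR adjusted p = 9.66e-07), and Fos rose (2.24), whereas Dusp5, Fosl1 and Myc fell. Egr1 was not called against clones 1 and 3 (-0.11). Of 34 semaphorin, ephrin and guidance genes 13 fell (38.2%) and 8 rose (23.5%), among them the ephrin receptor gene Ephb2 (2.63, and 4.88 against clones 1 and 3).

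Epithelial identity genes moved in part. Trp63, the master factor of basal epithelial cells (chr16:25683763-25892102, plus strand), rose from 1.30, 3.26, 1.61 and 3.44 CPM to 23.2, 20.4, 20.4 and 19.5 CPM (log2 fold change 3.10, SE 0.33, edgeR adjusted p = 6.65e-08). Mylk, a myosin light chain kinase of contractile cells, rose from 4.40, 3.54, 4.11 and 5.48 CPM to 17.1, 11.8, 16.3 and 10.9 CPM (1.67). Krt19 rose from 160.6, 282.8, 246.9 and 214.7 CPM to 337.5, 330.9, 379.1 and 348.0 CPM (0.63), without overlap. The myoepithelial genes Acta2, Cnn1 and Tagln were at 0 in every wild-type library, and the summed level of that list overlapped, at 257.8 to 397.2 CPM in wild type and 291.2 to 365.6 CPM in clone 2. Of 10 keratin genes 3 fell, or 6 without wild-type replicate 1, and 2 rose. Krt80 (-0.62) and Krt18 (-0.44) fell, and the call of Krt7 (-0.48) was lost in a fit of these 2 groups alone (adjusted p = 0.0887).

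Of 14 acinar markers 3 could be tested, and 2 fell. Aqp5, the water channel of acinar cells, went from 185.9, 181.1, 174.2 and 163.9 CPM to 126.4, 133.2, 138.8 and 154.7 CPM (log2 fold change -0.35), and Slc12a2 (-0.72), the basolateral chloride carrier, fell too but lay above clones 1 and 3 (0.42). Markers of fibroblasts, immune cells and endothelial cells were low. The 9 neural markers summed to 167.8 to 254.5 CPM in wild type and 146.9 to 169.3 CPM in clone 2. Most of that was Map2 (means of 205.8 and 152.1 CPM), which was called lower. The sum of 10 fibroblast markers was 11.3 to 18.2 CPM in wild type and 24.6 to 28.6 CPM in clone 2, of 10 immune markers 7.58 to 9.49 and 11.8 to 15.7 CPM, and of 9 endothelial markers 0 to 0.514 and 0 to 0.973 CPM. Ptprc, the pan-leukocyte gene, was at 0 in every wild-type library and at 0.417 to 0.689 CPM in clone 2. Whether other cells have a part in any result was not tested. Junction genes split, with 10 of 32 lower (31.2%, against 14.4% of all genes), among them Pkp4 (-0.73), and 5 higher (15.6%, against 17.3%). The higher calls numbered 2 without clone 2 replicate 3 or 4 and 3 without clone 2 replicate 1 or wild-type replicate 3. Without wild-type replicate 1, 12 junction genes were lower and 4 higher.

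The remaining lists are read against the 17.3% of all genes that were higher and the 14.4% that were lower. For protein-coding genes these shares were 14.3% and 18.4%. The shares of falls among ribosomal protein, oxidative phosphorylation, splicing factor and termination genes lay near the latter. Ribosomal proteins fell in 16 of 80 (20%) and rose in 1, with 32 lower without wild-type replicate 1. Nuclear genes of oxidative phosphorylation fell in 12 of 75 (16%) and splicing factors in 6 of 28 (21.4%), with 7 and 2 lower without TMM scaling factors. Splicing factors rose in 1 and oxidative phosphorylation genes in 5, or 11 without wild-type replicate 2 and 3 without clone 2 replicate 2 or 4. Interferon-stimulated genes rose in 2 of 18 and fell in 1, and the 2 rises dropped to 1 without wild-type replicate 1 or 3 or clone 2 replicate 1, 2 or 4 and to 0 without clone 2 replicate 3. Histone genes rose in 13 of 60 (21.7%) and fell in 4, and lysosome and autophagy genes rose in 7 of 25 (28%) and fell in 1; a fit of these 2 groups alone called 7 and 3 of the rises. Termination and Integrator genes fell in 4 of 21 (19%). Inflammatory genes rose in 6 of 19 (31.6%), 3 without clone 2 replicate 3, and fell in 4. Against clones 1 and 3, oxidative phosphorylation genes were higher in 13 of 75 and lower in 1, against 12% and 9.68% of all genes.

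**Figure D2:**
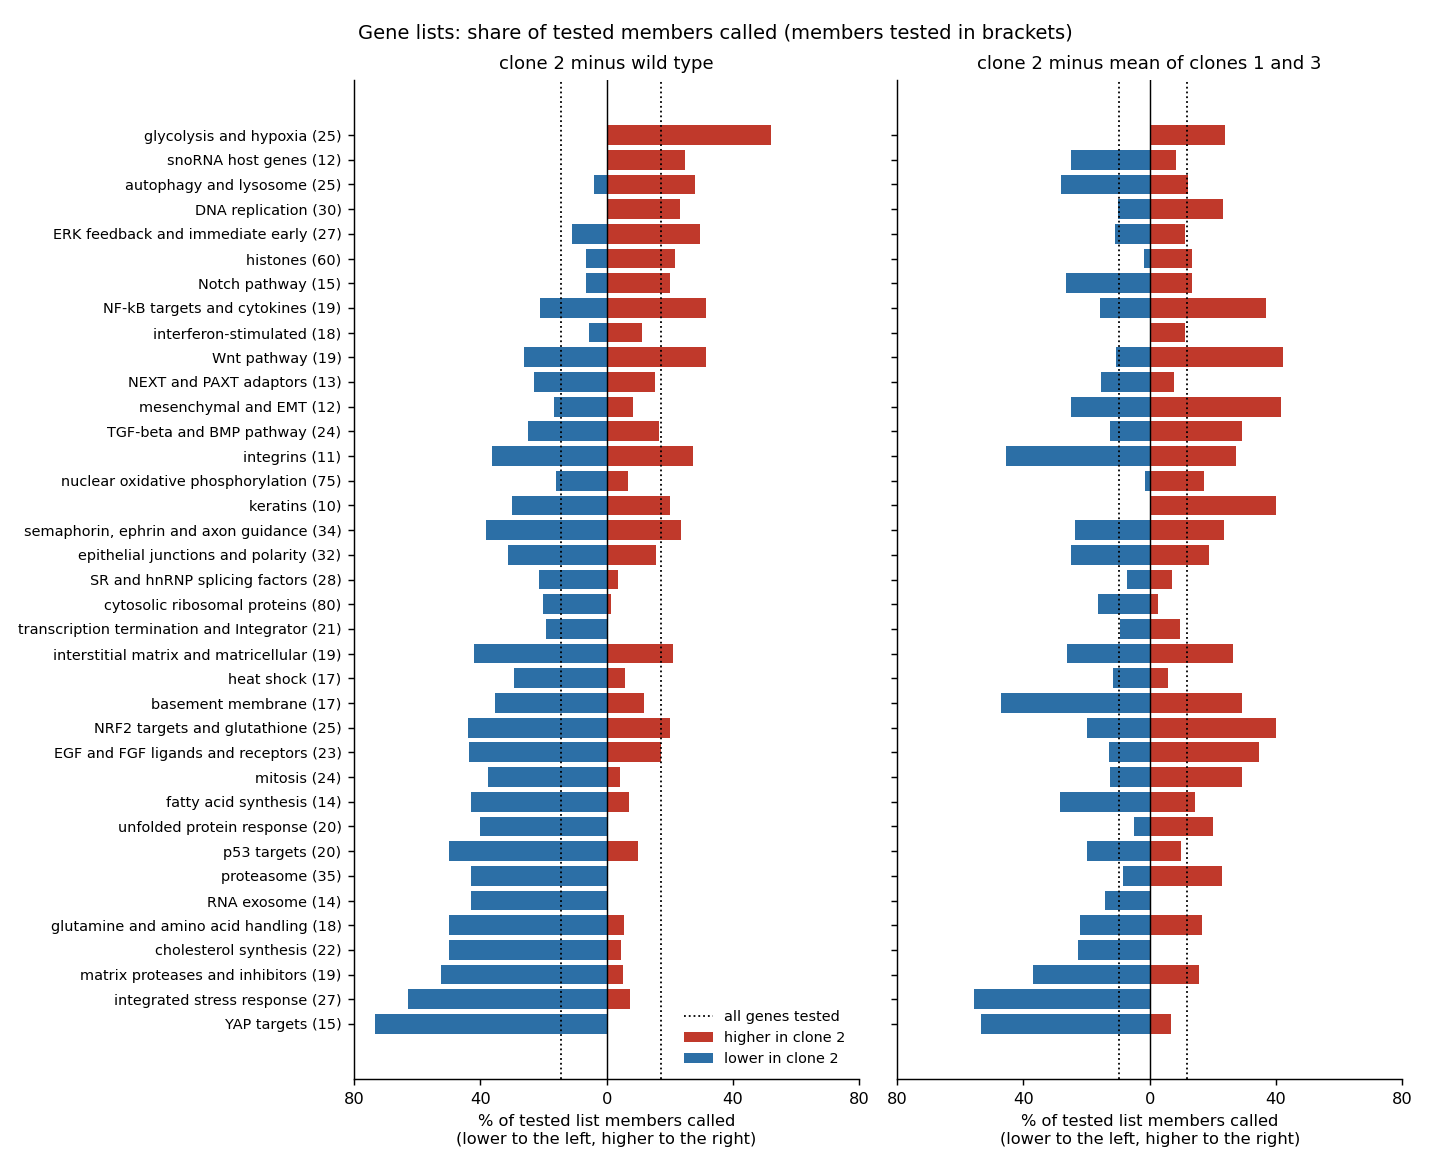
Percent of the tested genes of each list called higher (right) or lower (left) in clone 2, against wild type in the left panel and against the mean of clones 1 and 3 in the right panel; dotted lines mark the percent of all genes tested. YAP targets (73.3% lower) and the integrated stress response (63.0% lower) reach farthest to the left against wild type, and glycolysis and hypoxia (52.0% higher) farthest to the right among lists of 15 or more genes.

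The rule for single genes took the 8 protein-coding genes with the largest rises and the 8 with the deepest falls, of which several have been given above. Ehf, an epithelial ETS factor, rose from 0, 1.71, 2.57 and 2.68 CPM to 18.8, 19.1, 22.9 and 16.7 CPM (log2 fold change 3.47). Rab7b, a small GTPase of endosome sorting, rose from 0, 0.972, 0.881 and 0.874 CPM to 8.62, 9.39, 11.7 and 12.9 CPM (3.94). Wild-type replicate 1 was at 0 for both, and without it the changes were 3.05 and 3.53.

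Gpnmb, a lysosomal and surface glycoprotein, rose from 0.587 to 1.81 CPM to 7.17 to 15.6 CPM (log2 fold change 3.02), and F13a1, a clotting transglutaminase, from 0.147 to 4.66 CPM to 15.1 to 23.4 CPM (2.75). Ssc4d (3.26) and the meiotic mismatch-repair gene Msh5 rose too, Msh5 from 2.59, 4.00, 4.33 and 2.56 CPM to 35.0, 22.4, 28.1 and 30.7 CPM (3.10, edgeR adjusted p = 1.29e-12). These last 2 were not called against clones 1 and 3 (0.44 and 0.32). Gm14401 rose (3.71), but not against Btbd7 KO (0.97, edgeR adjusted p = 0.0766).

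On the falling side, Adgrg2, an adhesion receptor gene, went from 7.51, 6.34, 5.06 and 6.29 CPM to 0, 0, 0 and 0.0696 CPM, at least 24.9-fold lower (edgeR adjusted p = 2.18e-09). Clone 3 was also near its floor there (0 to 0.405 CPM). Cpa4 (-2.55), the peptidoglycan-recognition gene Pglyrp3 (-2.54), Klhl30 (-2.49) and Tfpi, an inhibitor of coagulation (-2.34), fell, each without overlap between the groups. Tfpi stood at 14.6 to 21.6 CPM in clone 1 and at 1.08 to 1.89 CPM in clone 3.

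**Figure D3:**
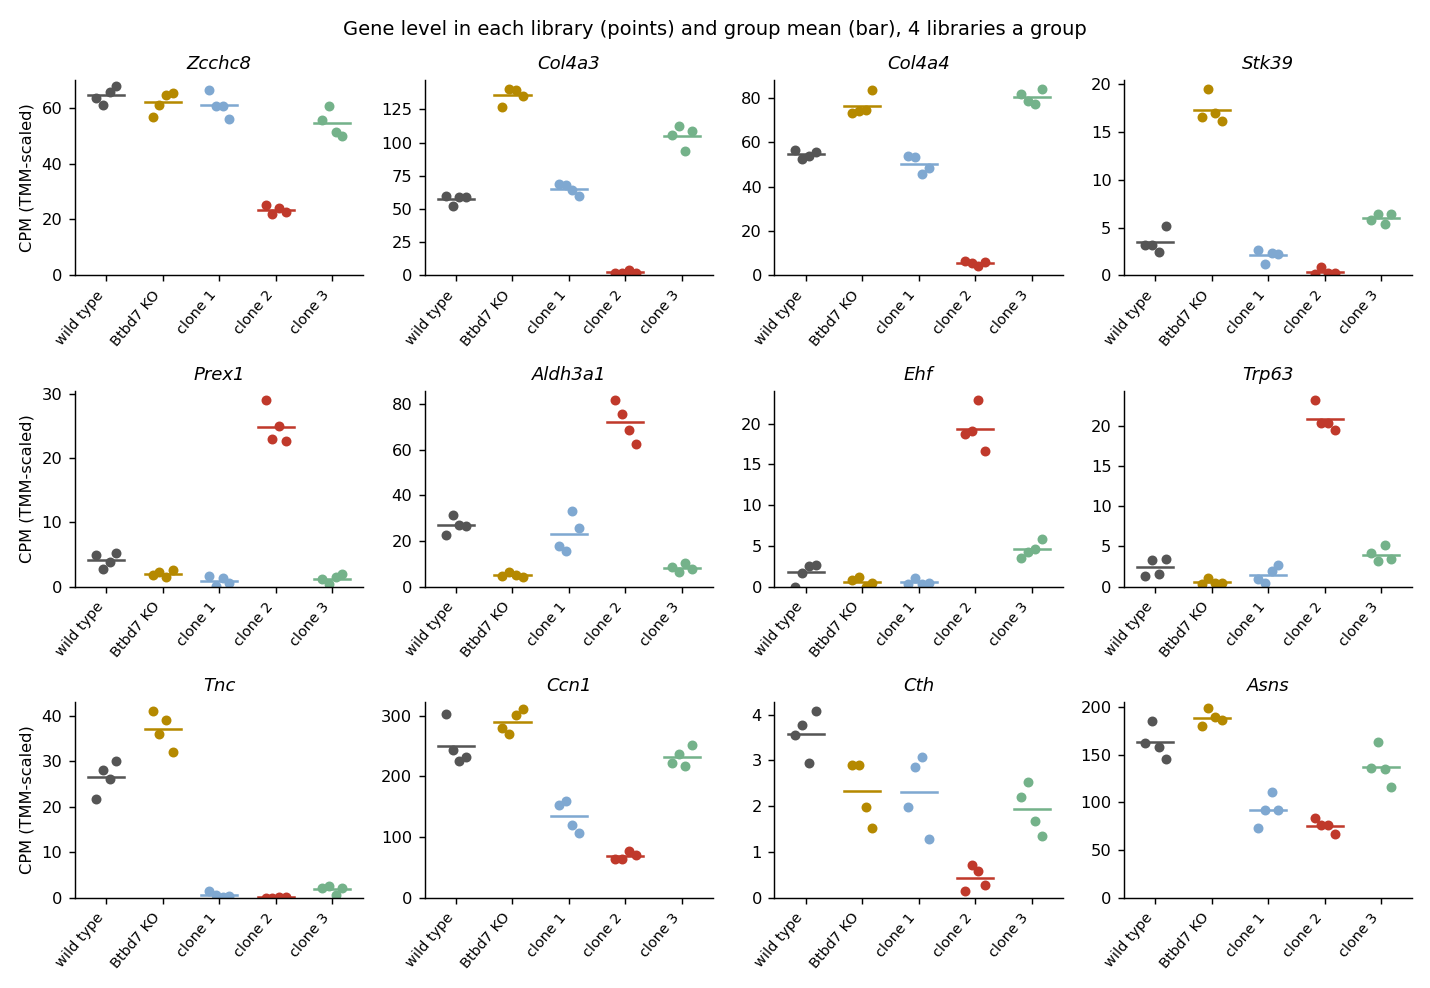
CPM per library (points, linear scale from 0) and group mean (bar) of 12 genes in the 5 groups. Zcchc8 is lowest in clone 2 (22.0 to 25.3 CPM), Col4a3 and Col4a4 are near 0 in clone 2 alone, Tnc is near 0 in all 3 Zcchc8 KO clones, and Trp63 and Ehf are highest in clone 2.

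To find what is particular to clone 2, it was compared with the mean of clones 1 and 3. Of 15296 genes, 1829 were higher (12%) and 1480 lower (9.68%). Genes called in 1 direction against wild type, Btbd7 KO, clone 1 and clone 3 alike numbered 306 higher (2.00%) and 372 lower (2.43%), of which 296 and 364 were protein-coding. Leaving out each clone 2 or wild-type library in turn gave 220 to 446 and 313 to 508. For PROMPTs 501 were higher (2.84%) and 769 lower (4.36%), and 77 (0.436%) and 51 (0.289%) were particular. Scaled within their own table, 732 PROMPTs were higher and 519 lower than in clones 1 and 3, so the lean to lower PROMPTs depended on the scaling.

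Among the genes that the rule took for particular rises and that are named here, Prex1, an activator of Rac, stood farthest above clones 1 and 3. It stood at 29.1, 23.1, 25.0 and 22.7 CPM in clone 2, 0.136 to 1.58 CPM in clone 1 and 0.377 to 1.89 CPM in clone 3 (log2 fold change 4.53, edgeR adjusted p = 3.51e-12). Wild type held 4.92, 2.69, 3.82 and 5.30 CPM, so clone 2 lay above and the other clones below it (2.57 against wild type, SE 0.28).

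Ehf (3.65), Zbtb7c (3.59), the secreted glycoprotein gene Olfm1 (3.32) and Trp63 (3.09) were other genes that the rule took from the top. Clone 2 was above every other library of the series for Ehf and Trp63, with clone 3 at 3.46 to 5.88 and 3.14 to 5.13 CPM. Olfm1 differed least from wild type, at 9.87, 14.1, 9.88 and 13.9 CPM against 6.54, 5.72, 5.43 and 5.13 CPM (1.07). Zbtb7c stood at 10.4, 10.9, 14.1 and 12.3 CPM in clone 2 against 3.43, 3.66, 2.94 and 1.75 CPM in wild type.

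At the other end, after Col4a3, Col4a4 and Tnc, came Tmem238l (-3.12), Stk39 (-3.07) and Pglyrp3 (-2.17). Tnc was low in clones 1 and 3 too, as given above, so its loss was shared and clone 2 was only the lowest. Stk39, a kinase that switches on the chloride carrier encoded by Slc12a2, stood at 0.139, 0.860, 0.287 and 0.278 CPM in clone 2, 1.23 to 2.63 CPM in clone 1, 5.38 to 6.42 CPM in clone 3, 2.50 to 5.19 CPM in wild type and 16.1 to 19.5 CPM in Btbd7 KO. Clone 2 was the lowest group, clone 1 and wild type overlapped, and Btbd7 KO was the highest. Tmem238l stood at 0.804 to 1.94 CPM in clone 2 and 5.65 to 6.06 CPM in wild type.

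The particular PROMPTs that the rule took lay over other genes. The PROMPT of Gm27820, which overlaps Hhip, an inhibitor of hedgehog ligands, on the opposite strand, went from 16.3, 26.3 and 28.6 CPM to 93.0, 95.0, 76.1 and 83.7 CPM (log2 fold change 1.87, and 2.98 against clones 1 and 3). That of Gm4813 went from 28, 21.1 and 20.2 CPM to 51.2, 66.1, 46.0 and 58.5 CPM (1.26, and 2.76 against the clones), and Gm4813 itself rose (1.52). The PROMPTs of Col4a4 (-3.26) and Col4a3 (-2.85) were the lowest. Among the other features 46 and 47 of 14137 promoter flanking regions were particular in the higher and lower direction (0.325% and 0.332%), and 11 and 22 of 9527 enhancers (0.115% and 0.231%).

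Whole stretches of chromosomes were shifted in clone 2, and the affected genes are spread over the lists above. By the median log2 deviation of each chromosome's genes from the wild-type mean, chromosomes 3 (-0.28), 18 (-0.27), 19 (0.17) and 11 (0.14) differed most from wild type, each with an exact permutation p = 0.0286 (0.0571 after Benjamini-Hochberg adjustment), the smallest that 4 against 4 libraries allow. Chromosome 3 was low in Btbd7 KO (-0.24), clone 1 (-0.26) and clone 3 (-0.15) as well, so wild type stood apart from every edited line. Against clones 1 and 3, chromosomes 13 (0.28), 18 (-0.23), 2 (-0.21), 19 (0.21) and 11 (0.14) differed most, each with an exact permutation p = 0.00404 (0.0101 adjusted). For chromosome 2 it was clone 1 that stood out, at 0.32. On chromosome 13 clone 1 (-0.23) and clone 3 (-0.17) lay below wild type, with clone 2 at 0.08. Chromosome 15 also differed from these clones by 0.14 (exact permutation p = 0.0121, 0.0202 adjusted). There clone 3 stood at -0.25 and clone 2 at 0.00.

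**Figure D4:**
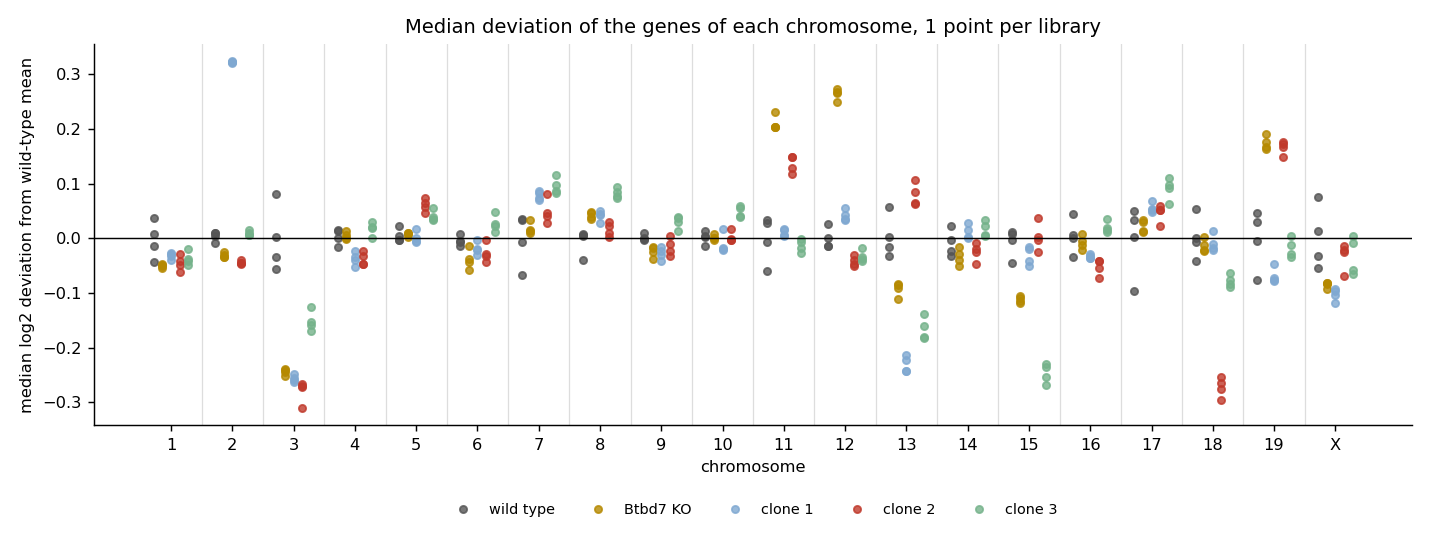
Median log2 deviation from the wild-type mean of the genes on each chromosome, 1 point per library. The clone 2 libraries lie below the other groups on chromosome 18 (mean -0.27), whereas on chromosome 3 (mean -0.28) all edited lines lie below wild type.

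The shift of chromosome 18 lay in its distal portion. A boundary at 40 Mb was set after the values were seen, so what follows is a description. Beyond it 113 of 138 genes were lower (81.9%) and 2 higher, and the median deviation was -0.57 to -0.53 in the clone 2 libraries, -0.05 to 0.06 in wild type, -0.03 in clone 1, -0.09 in clone 3 and -0.01 in Btbd7 KO. Before it 23 of 128 were lower and 20 higher, with a clone 2 mean of 0.00. PROMPTs followed, with 21 of 58 lower beyond the boundary (36.2%) and a clone 2 mean of -0.48. Of the 372 genes particular to clone 2 in the lower direction, 87 lay there. Smad7, given above, lies on chromosome 18, and Zbtb7c lies on it too but was higher than in wild type.

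Chromosome 11 was raised over its distal portion. From 80 Mb on, a boundary also set after the values were seen, 208 of 416 genes were higher (50%) and 11 lower, with clone 2 libraries at 0.27 to 0.32. Btbd7 KO was raised there as well (0.24), and clones 1 (0.05) and 3 (-0.05) were near wild type. Before 80 Mb clone 2 was level with wild type (-0.02) while Btbd7 KO was raised (0.19). PROMPTs from 80 Mb on were higher in 152 of 280 (54.3%). Of the particular genes, 51 of the 306 higher ones lay there. Cdc6 and Top2a lie on chromosome 11, as do proteasome genes that stood above clones 1 and 3, such as Psmd3 (0.58), Psmb3 (0.54) and Psmd11 (0.50). No DNA was analysed here.

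**Figure D5:**
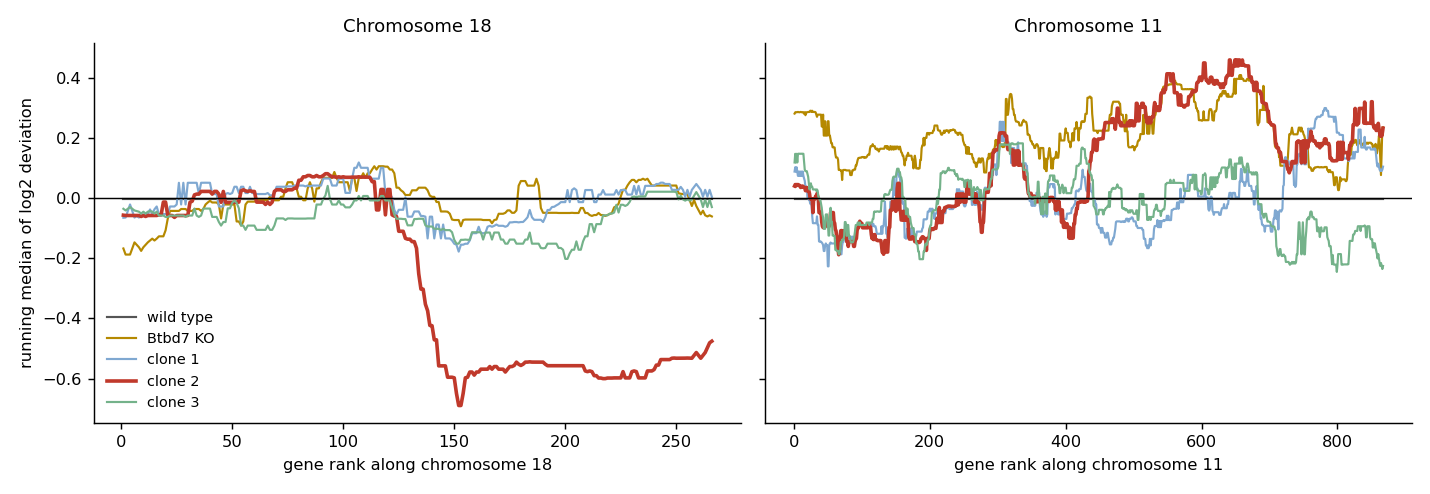
Running median, over 31 genes in order of position, of the log2 deviation from the wild-type mean along chromosomes 18 and 11, 1 line per group; wild type lies at 0 by construction. Clone 2 falls to about -0.55 over distal chromosome 18 and rises to about 0.29 over distal chromosome 11.

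Off chromosomes 3, 11, 18 and 19, 2006 of 12423 genes were higher (16.1%) and 1629 lower (13.1%). The list counts held in kind there. YAP targets were lower in 7 of 11 (median -0.38), the integrated stress response in 13 of 22 (-0.57), cholesterol synthesis in 11 of 19, matrix proteases in 10 of 18 and p53 targets in 7 of 16, and glycolysis and hypoxia were higher in 12 of 22. Ccn1, whose fall was the largest of the YAP targets, lies on chromosome 3. Against clones 1 and 3 the calls depended more on these chromosomes. Off chromosomes 2, 11, 13, 15, 18 and 19, 915 of 10894 genes were higher (8.40%) and 936 lower (8.59%), and 138 and 203 genes remained particular to clone 2 off every moved chromosome, against 306 and 372 in all.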

How the data were processed

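RNA for the 20 libraries was isolated by TRIzol followed by spin columns, and a stranded total RNA kit was used, per the labels' protocols. The authors deposited raw read counts per gene, PROMPT and regulatory feature; STAR 2.7.3a is named in the submitters' processing notes, and build, counter and strand setting are not given in the sources used here. No column lacked a mapped library. Of 55471 gene identifiers, 54573 matched GENCODE M21 (GRCm38) with version.

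Counts were fitted with edgeR 4.0.16 (R 4.3.3; glmQLFit, glmQLFTest) over 5 groups after filterByExpr, with all tables scaled by the gene table's totals and TMM factors. A Benjamini-Hochberg adjusted p under 0.05 was a call, and all p-values of single features are edgeR's, adjusted over the whole table. SEs come from the same tests, CPM are TMM-scaled, and ratios used a pseudocount of 0.5 CPM. Depth was 6833258 to 17771804 gene counts and 1569548 to 3966608 PROMPT counts. The code was tested on simulated data.

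The members and lists were chosen with earlier results of these data known. Named genes were Zcchc8, Btbd7, Rbm7 and Mtrex; of genes with at least 50 mean counts called with and without wild-type replicate 1, the 8 highest and 8 lowest protein-coding changes, and 4 and 2 others; 6 and 6 particular genes; up to 4 called members of each list; the 5 nearest neighbours of Zcchc8 on each side; and, for PROMPTs, 4 and 2, plus 2 and 2 particular ones, and the extremes of each other table. Some genes that the rule takes are not reported here. Further list members were named after their values were seen. Alternatives covered scaling, filters, DESeq2 1.42.0, depth, groups fitted and left-out libraries.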

Additional observations from a re-analysis of the deposited data

Results flagged for a closer look

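Among groups of 4 libraries, 7 of 86 held a library farther from its group than Dixon's 95% limit, and chance flags about 1 in 20 groups. In wild type these were Rab7b in replicate 1 (0 CPM), Col4a3 in replicate 2 (52.4 CPM) and Tfpi in replicate 4 (8.33 CPM). In clone 2 they were Adgrg2 in replicate 4 (0.0696 CPM), Col4a3 in replicate 3 (4.42 CPM), the Rfesd PROMPT in replicate 4 (14.4 CPM) and promoter ENSMUSR00000069841 in replicate 4 (1.32 CPM).

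Clone 2 differed from the mean of the other Zcchc8 KO clones, by edgeR's test of that difference, in 3309 genes and 1270 PROMPTs. The named genes that were higher were Prex1 (log2 difference 4.53), Ehf (3.65), Zbtb7c (3.59), Olfm1 (3.32) and Trp63 (3.09). Those that were lower were Col4a3 (-4.91), Col4a4 (-3.52), Tnc (-3.22), Tmem238l (-3.12), Stk39 (-3.07) and Pglyrp3 (-2.17). Tnc was low in all the Zcchc8 KO clones, as given above. Among PROMPTs they were Gm27820 (2.98), Gm4813 (2.76), Col4a4 (-3.26) and Col4a3 (-2.85).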

How the results depend on the processing

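Of the values recomputed for the main comparisons 296 kept their direction and size and 32 moved. With a log2 change over 1 required as well, 1318 genes were higher and 182 lower than in wild type, 329 and 141 differed from clones 1 and 3, and 55 and 33 were particular; 149 and 177 PROMPTs differed from the clones. Lower calls against wild type were then 87 for PROMPTs, 68 for promoter flanking regions, 36 for promoters, 51 for enhancers, 43 for CTCF sites, 18 for open chromatin and 10 for binding sites. Fitting only clone 2 and wild type gave 1395 genes higher and 1319 lower, and lower calls of 86 enhancers, 62 CTCF sites, 41 open chromatin regions and 18 binding sites. Scaling within each table gave 2846 lower PROMPTs, 529 promoter flanking regions, 257 promoters, 257 enhancers, 175 CTCF sites and 114 open chromatin regions. In alternatives added after seeing the data, Btbd7 KO as control gave 832 lower PROMPTs, and leaving out the moved chromosomes gave 915 genes higher and 936 lower than the clones, with 138 and 203 particular. DESeq2 called 2887 genes higher and 2285 lower.

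Leaving out 1 library at a time gave 2145 to 2806 genes higher and 1902 to 2528 lower than wild type, 1471 to 2462 and 1175 to 2074 against the clones, and 220 to 446 and 313 to 508 particular. PROMPTs ranged from 5812 to 5967 and 452 to 564, and from 340 to 578 and 527 to 918 against the clones; promoter flanking regions from 1118 to 1190 and 245 to 291, promoters from 464 to 520 and 111 to 148, enhancers from 505 to 534 and 124 to 158, CTCF sites from 475 to 548 and 76 to 113, open chromatin from 255 to 272 and 54 to 64, binding sites from 84 to 101 and 20 to 28, and the PROMPT to gene ratio from 0.98 to 1.01. Same-numbered libraries deviated together for replicates 1 and 3 but not for 2 and 4 (correlations 0.21, -0.08, 0.26 and -0.00 over 10777 genes), so the numbers were not taken to pair them; with the replicate block 2665 genes were higher and 2133 lower, 6186 and 499 PROMPTs, and the ratio was 1.00.

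Of 3207 values of single features 3043 kept their call, 155 lost it (40 features), 2 gained it and 7 changed sign, all in genes near Zcchc8 that were not called: Vps33a (-0.12 without wild-type replicate 1), Gm43133 (-0.06 without clone 2 replicate 2, -0.08 without wild-type replicate 1) and Rsrc2 (-0.0027 in the fit of these 2 groups, -0.0036 without clone 2 replicate 1, -0.02 without clone 2 replicate 4 and -0.05 without wild-type replicate 4). Without wild-type replicate 2 these 3 stood at 0.11, 0.83 and 0.02, in that order. The cause was not tested. Of the counts of called list members 1102 stayed within 1.5 times their value and 130 did not. With 4 libraries against 4, exact tests cannot go below 0.0286.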
